A study of Mus musculus with 3 samples.

Results

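Granins are acidic proteins that are packed with peptide hormones into dense-core granules, and 8 genes of this group or of the same secretory cells are described here in the mouse pituitary's intermediate lobe (IL). They are Chga, Chgb, Scg2, Scg3, Vgf, Resp18, Nnat and Gnas, taken as a list by name, and they are 8 of the 17775 genes with a row in any of 3 tables of unique molecular identifier (UMI) counts from single cells. All 8 had a row in all 3 tables. Each table is 1 droplet library of dissected and dissociated ILs from 3-month-old mice, and there was 1 library per genotype. All mice carried Sox9iresCreERT2/+, a Cre recombinase driven at Sox9 and active after tamoxifen, so that Cre acts in Sox9-expressing stem cells and their progeny. The study's methods also give all 3 genotypes the reporter allele Rosa26ReYFP/+. WT had no other labelled allele, P27NULL was also p27-/- (loss of the cell cycle inhibitor encoded by Cdkn1b), and S2CK was p27-/- with Sox2fl/+, where Cre can remove 1 copy of Sox2. The labels give tamoxifen by oral gavage at 4 weeks of age, whereas the study's text places induction at birth, and this was not settled here. The study describes each library as a pool of animals, of males for WT and of both sexes for P27NULL and S2CK. With 1 library per genotype no difference between genotypes was tested, and all intervals are exact 95% intervals for counting error only.

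Melanotrophs, the main endocrine cells of the IL, cut the precursor encoded by Pomc into melanocyte-stimulating hormone and store it in dense-core granules until it is released. Chromogranin A (Chga), chromogranin B (Chgb) and secretogranin II (Scg2) aggregate in the calcium-rich, acidic trans-Golgi network and help to form the granule core, and they are themselves cut into peptides. Secretogranin III (Scg3) binds chromogranin A and the granule membrane. Vgf is the precursor of several neuropeptides and Resp18 is a protein of the regulated secretory pathway of endocrine cells. Nnat (neuronatin) and Gnas are not granins. Neuronatin is a small membrane protein of the endoplasmic reticulum from an imprinted gene, and Gnas encodes the stimulatory G protein alpha subunit that couples hormone receptors to cyclic AMP.

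In GRCm38, the build of the tables, RefSeq places Chga at chr12:102554941-102565027, Chgb at chr2:132781642-132795079, Scg2 at chr1:79434366-79440026 and Scg3 at chr9:75643366-75685959. Vgf lies at chr5:137025301-137033351, Resp18 at chr1:75272197-75278415 and Nnat at chr2:157560078-157562525, within the span of Blcap (chr2:157556362-157566361). Gnas spans chr2:174284320-174346744, where several transcripts with their own first exons, among them that of the chromogranin-like protein NESP55, share the 3′ exons. Counts of 3′ ends cannot tell these transcripts apart, so values for Gnas are for the whole locus.

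Cyclic AMP acts on many secretory genes through the cyclic AMP response element (CRE), and matches to it were searched. The promoters shown are those of 5 secretory granule members that were higher in cells with more Pomc (as given further on). Gnas, also higher there, has 4 windows and is not printed. RefSeq promoter windows, from 250 bases before to 50 bases after a transcript start in GRCm38.p6, were at hand for 7 of the 8 genes. The full palindromic CRE, TGACGTCA, which reads alike on both strands, was in the windows of 2 genes, Chgb (starting 72 bases before the transcript start) and Scg2 (68 bases before). It was in 1.79% of all 32851 windows. The 5-letter core of it, TGACG, searched on both strands and contained in every full CRE, was in windows of 5 genes and in 20.8% of all windows. It started 44 bases before the start in Chga and 30 bases before it in Scg3, both on the gene's own strand, and it was present on the opposite strand of Gnas. Neither was found in the windows of Resp18 and Nnat, nor in that of Pomc itself. A match of letters is a description and shows no binding. The part of the CRE in the order with Pomc was not tested. The windows are printed 5′ to 3′ on the gene's strand, with TGACG and TGACGTCA in capitals.
Chga, chr12:102554691-102554990, plus strand: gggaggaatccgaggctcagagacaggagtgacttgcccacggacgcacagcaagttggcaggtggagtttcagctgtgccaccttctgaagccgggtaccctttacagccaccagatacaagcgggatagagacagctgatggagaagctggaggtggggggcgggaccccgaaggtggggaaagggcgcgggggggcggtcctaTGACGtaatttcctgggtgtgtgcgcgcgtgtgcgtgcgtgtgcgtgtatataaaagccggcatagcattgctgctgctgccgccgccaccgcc
Chgb, chr2:132781392-132781691, plus strand: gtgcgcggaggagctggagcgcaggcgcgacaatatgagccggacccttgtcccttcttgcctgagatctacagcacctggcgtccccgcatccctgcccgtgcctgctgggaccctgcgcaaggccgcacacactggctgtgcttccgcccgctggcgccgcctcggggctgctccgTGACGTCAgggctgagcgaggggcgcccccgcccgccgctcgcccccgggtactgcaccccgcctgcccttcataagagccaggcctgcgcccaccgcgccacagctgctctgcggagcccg
Scg2, chr1:79439977-79440276, minus strand: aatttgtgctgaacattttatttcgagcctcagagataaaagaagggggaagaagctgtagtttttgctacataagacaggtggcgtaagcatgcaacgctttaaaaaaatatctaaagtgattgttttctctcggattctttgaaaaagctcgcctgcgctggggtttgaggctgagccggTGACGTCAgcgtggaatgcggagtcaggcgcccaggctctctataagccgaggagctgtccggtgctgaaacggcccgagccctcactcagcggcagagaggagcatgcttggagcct
Scg3, chr9:75684007-75684306, minus strand: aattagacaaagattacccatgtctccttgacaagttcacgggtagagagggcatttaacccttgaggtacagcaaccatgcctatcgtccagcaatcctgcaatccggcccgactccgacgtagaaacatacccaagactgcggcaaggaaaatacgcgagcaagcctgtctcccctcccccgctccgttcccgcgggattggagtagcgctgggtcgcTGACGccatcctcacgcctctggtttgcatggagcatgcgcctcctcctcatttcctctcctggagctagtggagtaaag
Resp18, chr1:75278366-75278665, minus strand: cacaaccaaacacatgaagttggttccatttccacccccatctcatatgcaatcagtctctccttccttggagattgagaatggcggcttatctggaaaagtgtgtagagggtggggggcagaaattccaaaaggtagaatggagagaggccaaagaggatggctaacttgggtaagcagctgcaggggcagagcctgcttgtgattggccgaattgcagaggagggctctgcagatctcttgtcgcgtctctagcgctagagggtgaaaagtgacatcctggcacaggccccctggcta

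The tables hold 2020 WT, 4153 P27NULL and 3488 S2CK cells with medians of 3642.5, 2740 and 4906.5 UMIs per cell, and WT was filtered more loosely, with 162 cells under 1000 UMIs. Melanotroph-like cells numbered 1227, 3488 and 3003. They held UMIs of all 7 melanotroph markers in each library, at 3544 to 7301 CPM (UMIs of a gene per 1000000 UMIs of the summed cells), while corticotroph markers summed to 4.07 to 10.3 CPM. Library pairs shared 2 to 4 cell barcodes. A cell with Xist but no Y-linked UMIs was called female, and any cell without an Xist UMI male. Female cells whose Xist was missed thus count as male. All WT cells were called male, 3370 P27NULL cells male and 766 female, and 3274 S2CK cells female and 214 male. The S2CK library is thus nearly all female, and genotype cannot be told apart from sex between WT and S2CK. Melanotroph-like cells held Cdkn1b at 33.3 CPM in WT, 30.4 in P27NULL and 16.9 in S2CK. Its UMIs are 3′ ends, and whether these lie inside the deleted part is not given in the sources used here, so they do not check the label of the library labelled P27NULL.

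In melanotroph-like cells the granins of the granule core had similar levels in all 3 libraries, within 1.5-fold of each other except for Chgb. Chga was at 2087 CPM in WT, 2471 in P27NULL and 1759.9 in S2CK. It was the highest in the library labelled P27NULL, with a log2 ratio of 0.24 against WT (interval 0.21 to 0.27) and of -0.49 for S2CK against P27NULL (-0.51 to -0.47). Chgb was at 674, 864 and 1117 CPM, highest in S2CK, which was 0.73 above WT on the log2 scale (0.68 to 0.78). Scg2 was at 979, 1110.4 and 915 CPM, and its 3 log2 ratios lay between -0.28 and 0.18. Scg3 was at 129.97, 129 and 112 CPM, with a log2 ratio of -0.01 (-0.14 to 0.11) for P27NULL against WT, an interval that includes 0, and of -0.22 (-0.34 to -0.10) for S2CK against WT. Chga and Scg2 were thus lowest in S2CK, where Chgb was highest.

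Resp18 was at 2169.5, 2300.5 and 2905 CPM, 0.42 above WT in S2CK on the log2 scale (0.39 to 0.45). Gnas was at 4399.9, 5474 and 5209 CPM, 0.32 above WT in P27NULL (0.29 to 0.34) and 0.24 in S2CK (0.22 to 0.26). Gnas was higher in both mutant libraries than in WT, and Resp18 was higher in S2CK. Resp18 in P27NULL, at 0.08 against WT (0.05 to 0.11), was near the median of all genes tested, 0.09. Pomc, at 174914, 133546 and 138737 CPM, was lower in both mutant libraries than in WT. Totals without Pomc moved every log2 ratio against WT by -0.07 in P27NULL and by -0.06 in S2CK. Vgf was scarce, at 5.58, 9.26 and 9.27 CPM from 33, 125 and 158 UMIs. Its log2 ratio was 0.73 against WT in both mutant libraries, with wide intervals (0.17 to 1.33 in P27NULL and 0.18 to 1.32 in S2CK). Nnat was at 13.2, 4.82 and 4.69 CPM from 78, 65 and 80 UMIs, which gives -1.45 (-1.95 to -0.96) in P27NULL and -1.49 (-1.96 to -1.02) in S2CK. Only 3.02%, 1.61% and 1.83% of melanotroph-like cells held a Nnat UMI. In macrophage-like cells, which should lack the gene, these shares were 2.21%, 2.52% and 6.09%, so Nnat in melanotroph-like cells was at background and its ratios are not read as a change of expression.

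For P27NULL against WT, 2 of the 8 genes (Vgf higher and Nnat lower) were past 1.5-fold, beside 8.42% of the 9985 genes with at least 100 UMIs in both libraries together. For S2CK against P27NULL none of the 8 was past it, beside 15.3% of genes, and for S2CK against WT there were 3 (Chgb, Vgf and Nnat), beside 11.4%. The median log2 ratios of the 8 genes were 0.21, -0.05 and 0.07 in these comparisons, beside 0.09, -0.15 and -0.03 over all genes tested. These comparisons share libraries, and single genes carry the counts. In male cells of P27NULL alone against WT the median was 0.20. Against female P27NULL cells alone, S2CK had a Chga log2 ratio of -0.60, past 1.5-fold. WT holds no female cells, so S2CK against WT has no such value.

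**Figure D1:**
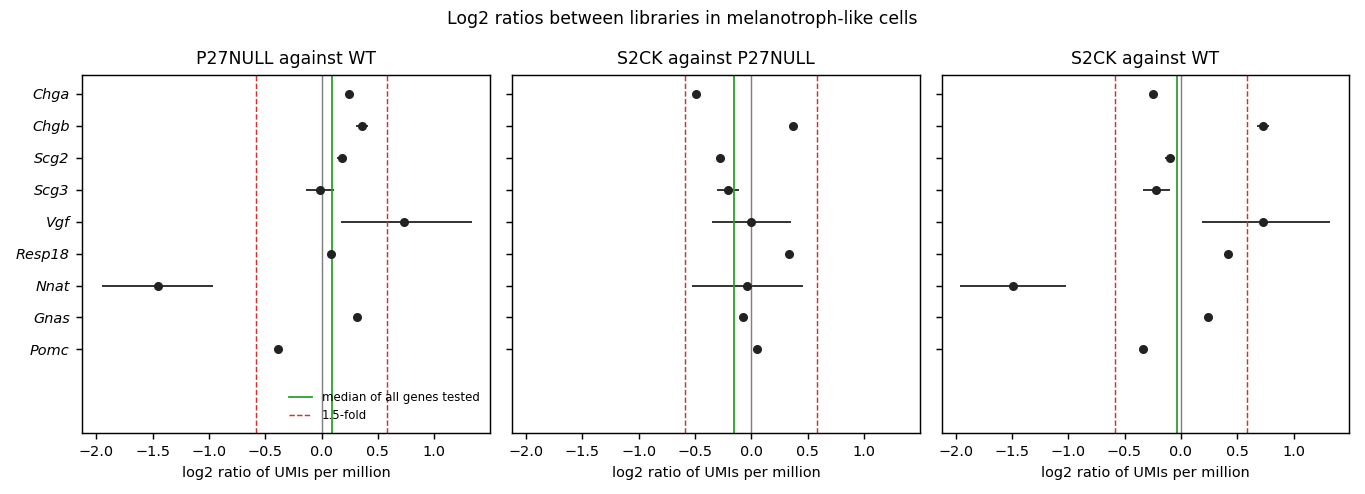
Log2 ratios of CPM between libraries in melanotroph-like cells for the 8 genes and Pomc, with exact 95% counting intervals. The green line is the median of all genes tested (0.09, -0.15 and -0.03) and the dashed lines mark 1.5-fold, which Vgf and Nnat pass against WT in both mutants and Chgb in S2CK.

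Other genes of the granule pathway were counted from lists in the same cells. Both granin-like proteins were within 1.5-fold of WT. Pcsk1n (proSAAS, an inhibitor of the convertase PC1/3) was at 5734, 4605 and 4450.4 CPM and Scg5 (7B2, the chaperone of the convertase PC2) at 928, 847 and 1057 CPM. Of 8 prohormone processing enzymes, none was past 1.5-fold in P27NULL against WT, beside 8.42% of all genes. In S2CK against P27NULL 2 were lower past it, beside 15.3% of all genes past it in either direction. They were Pcsk2, which encodes PC2 (5729 to 2449 CPM, log2 ratio -1.23, interval -1.24 to -1.21) and Pam, the amidating enzyme (938 to 432 CPM, -1.12, interval -1.16 to -1.08). In WT these were at 4319 and 946 CPM. Pcsk2 is also a melanotroph marker used to name these cells, so its level was used by the naming.

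The machinery of granule priming and fusion was lower on balance in S2CK than in P27NULL, with 22 of 25 measured genes lower, 7 of them past 1.5-fold, none higher past it, and a median of -0.40 beside -0.15 for all genes, of which 33.9% were higher and 15.3% past 1.5-fold. In S2CK against WT 19 of 24 were lower, 3 of them past 1.5-fold beside 11.4% of all genes, with a median of -0.24 beside -0.03. In S2CK against P27NULL the lowest ratios were those of Stx1a (8.59 to 4.87 CPM) and Syt13 (27.2 to 15.7 CPM), a syntaxin and a synaptotagmin. Snap25, a partner of syntaxin at the plasma membrane, had the highest ratio there (178 to 211 CPM). In P27NULL against WT, 21 of 24 were higher, beside 64.5% of all genes. Of these 24 only Rimbp2 (5.41 to 10.1 CPM) was higher past 1.5-fold and only Rab27b (42.6 to 25.8 CPM), a GTPase of granule docking, lower. Of all genes 8.42% were past it in that comparison. Of 26 measured genes of granule membrane and biogenesis, 2 were higher past 1.5-fold in P27NULL against WT, near the share of 8.42% of all genes. They were Stmn2 (4.90 to 12.7 CPM) and Pacs1 (7.10 to 10.8 CPM). Both were also past it in S2CK against WT, at 12.02 and 14.2 CPM, beside 11.4% of all genes. Stmn2 had 29 UMIs in WT, 171 in P27NULL and 205 in S2CK, so it passed the UMI filter mainly through the mutant libraries. Of 10 G protein alpha subunits other than Gnas none was past 1.5-fold in any comparison.

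Of 25 peptide cargo genes 5 had enough UMIs. Gal, the galanin precursor, was at 3.21 CPM in WT (19 UMIs), 35.0 in P27NULL and 20.5 in S2CK. Pdyn, the prodynorphin gene, was at 11.0, 24.2 and 16.0 CPM. Both were past 1.5-fold above WT in P27NULL, and Gal also in S2CK, with log2 ratios of 3.44 (2.79 to 4.19) and 2.68 (2.01 to 3.43). Gal had 472 UMIs in P27NULL and 350 in S2CK, so it passed the UMI filter mainly through the mutant libraries. At its WT level in every library it would have failed that filter, so its place among the genes past 1.5-fold was set by the filter. Nucb2, the nucleobindin gene that gives nesfatin, was at 142, 144 and 69.1 CPM. Nucb2 was thus near the WT level in P27NULL and lower in S2CK, with a log2 ratio of -1.06 against P27NULL. In that comparison 4 of these 5 cargo genes were lower past 1.5-fold and none was higher, beside 15.3% of all genes past it and a median of -0.15 for all genes.

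Across cell types the 8 genes separated. Chga and Scg2 were highest in gonadotroph-like cells in every library, Chgb in cells of the Pou1f1 lineage (growth hormone, prolactin and thyrotropin cells), and Nnat in corticotroph-like and Pou1f1-lineage-like cells. These anterior lobe types were few in the dissected ILs, with 81 to 134 corticotroph-like, 37 to 127 gonadotroph-like and 22 to 61 Pou1f1-lineage-like cells per library. In Pou1f1-lineage-like cells Chgb was at 4685 CPM in WT, 4065 in P27NULL and 4938 in S2CK, and its next highest level in these libraries was 934 in WT and 1640.0 in P27NULL gonadotroph-like cells and 1117 in S2CK melanotroph-like cells. The intervals of these neighbours did not overlap.

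Resp18 had 2 types at its top. It was at 2798, 1885 and 2851 CPM in Pou1f1-lineage-like cells beside 2169.5, 2300.5 and 2905 in melanotroph-like cells, and the counting intervals of the pair overlapped in S2CK and P27NULL but not in WT. Gnas was highest in corticotroph-like cells, at 6530.1, 6716 and 8084 CPM, followed by gonadotroph-like cells in WT and melanotroph-like cells in the mutants. Scg3 was between 98.1 and 240.2 CPM in the 4 endocrine types, whose intervals mostly overlapped, and between 15.0 and 64.1 CPM in stem cell, connective tissue, endothelial and macrophage-like cells. Vgf reached 43.1 CPM (9 UMIs) in S2CK gonadotroph-like cells and 10.9 CPM or less in every other named type except P27NULL pituicyte-like cells, where 1 UMI gave 16.1 CPM.

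Nnat set melanotroph-like cells apart from corticotroph-like cells. Corticotroph-like cells held it at 4845, 5343 and 3686 CPM with UMIs in 85.1%, 78.4% and 82.7% of cells, against 13.2, 4.82 and 4.69 CPM in melanotroph-like cells. In Pou1f1-lineage-like cells it was at 8574, 8852 and 3021 CPM and in gonadotroph-like cells at 2166, 3129 and 1657 CPM. Nnat was thus at 1657 CPM or more in all 3 anterior endocrine types, and its level was lowest in S2CK in each of them. Pomc was at 35337, 39749 and 42635.5 CPM in corticotroph-like cells, beside 30903, 48911 and 35528 CPM in macrophage-like cells. Pomc in corticotroph-like cells was thus not told apart from its level in macrophage-like cells. It was above the 1974, 3899 and 2431 CPM of Pou1f1-lineage-like cells, and the part of free RNA in it was not tested. The order of Chga among the endocrine types was the same in the 3 libraries: gonadotroph-like, melanotroph-like, corticotroph-like and, lowest, Pou1f1-lineage-like cells at 237, 277 and 357 CPM. Macrophage-like cells held more, at 335, 759 and 486 CPM, so the lowest of these types was not above the macrophage-like level. The corticotroph-like interval also overlapped that of pituicyte-like cells in WT and of macrophage-like cells in S2CK.

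**Figure D2:**
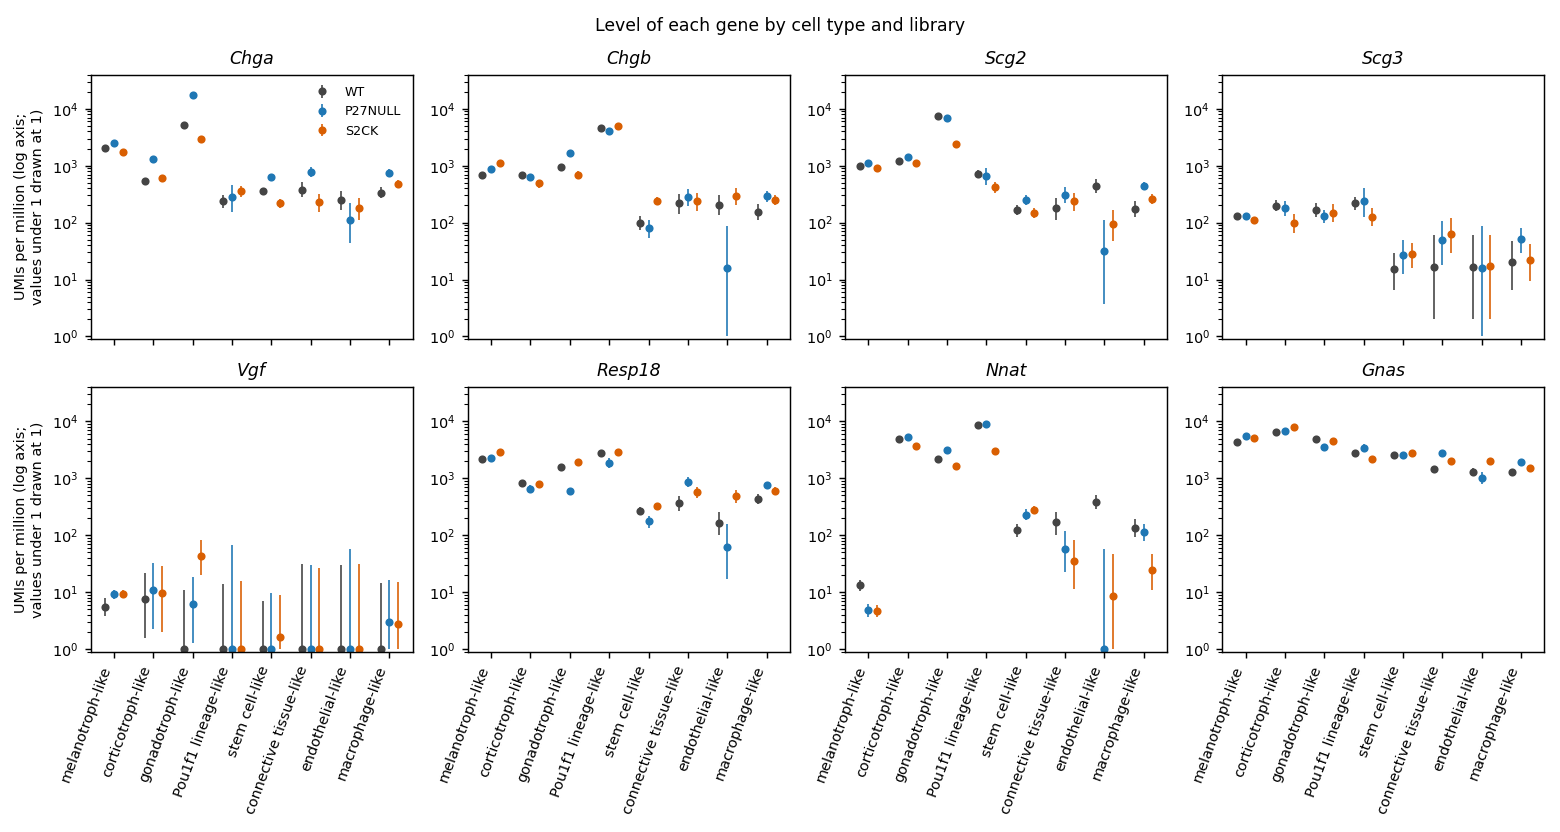
CPM of each gene by marker-named cell type (log axis, values under 1 drawn at 1) in the 3 libraries, with exact 95% Poisson intervals. Chga and Scg2 are highest in gonadotroph-like cells, Chgb in Pou1f1-lineage-like cells, and Nnat is at 1657 to 8852 in 3 endocrine types but at 4.69 to 13.2 in melanotroph-like cells.

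Non-endocrine cells held UMIs of most members, and droplets can hold free RNA released by other cells. In macrophage-like cells Chga was at 335, 759 and 486 CPM, with UMIs in 14.7%, 25.2% and 26.1% of cells at median depths of 1544, 1964 and 2540 UMIs. In melanotroph-like cells the shares were 96.0%, 96.6% and 95.2% at median depths of 4209, 2821.5 and 5021 UMIs. With every cell thinned to 1000 UMIs they were 14.6%, 21.8% and 13.0% against 79.4%, 82.7% and 69.8%. Free RNA of a single source keeps a fixed ratio between its genes, and per Pomc UMI the 6 members other than Vgf and Nnat in macrophage-like cells were at 0.65 to 1.35 times the ratio of the whole library. In stem-cell-like cells Chga, Chgb, Scg2 and Resp18 were at 0.68 to 2.22 times it. Gnas was above it in stem-cell-like cells, at 3.12, 4.84 and 3.70 times, with 2533, 2573 and 2745 CPM and UMIs in 94.1%, 98.1% and 98.8% of cells. Nnat was at 0.96, 9.11 and 14.4 times it there, from UMIs in 4.41% to 6.73% of cells. In WT endothelial-like cells the members other than Vgf were at 3.05 to 20.1 times it, against 0.51 to 1.90 times in S2CK for members other than Vgf and Nnat. Gonadotroph markers summed to 13173 CPM in WT endothelial-like cells, beside 8524 CPM of endothelial markers. They were at 78.2 CPM in P27NULL and 136 CPM in S2CK, and their part in the WT values was not tested. Levels in macrophage-like cells serve as a reference, and whether free RNA gives them was not tested. Pomc differed between non-endocrine types, at 30903 CPM in WT macrophage-like and 3957 CPM in WT endothelial-like cells. Pou1f1-lineage markers summed to 6288, 83.4 and 91.8 CPM in macrophage-like cells. The ratio per Pomc UMI does not settle the source of the values in these or the other non-endocrine types.

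Of the ratios between libraries of members past the UMI filter, the 2 farthest from 0 were both those of Chga in gonadotroph-like cells, with P27NULL on one side. It was at 5167 CPM in WT (47 cells, interval 4928 to 5415), 17529 in P27NULL (127 cells, 17158 to 17906) and 2945 in S2CK (37 cells, 2717 to 3187). The log2 ratio was 1.76 (1.69 to 1.84) for P27NULL against WT and -2.57 (-2.69 to -2.46) for S2CK against P27NULL. The median gonadotroph-like cell held Chga at 4799 CPM in WT, 21720.2 in P27NULL and 1880.4 in S2CK. In P27NULL the tenth percentile of cells, 6164 CPM, was above the WT median, and the WT ninetieth percentile, 9227, was below the P27NULL median. Chga in P27NULL macrophage-like cells, 759 CPM against 335 in WT, was also higher but far below these values.

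The other granule genes had different orders over the libraries in these cells. Scg2 was at 7543, 6891 and 2408 CPM, near WT in P27NULL (-0.13, interval -0.21 to -0.06, or 0.07 with each cell given the same weight) and lower in S2CK against WT (-1.65, -1.79 to -1.51). Chgb was at 934, 1640.0 and 689 CPM, with 0.81 (0.62 to 1.01) in P27NULL against WT. Resp18 was at 1610.2, 589 and 1973 CPM, with a log2 ratio of -1.45 (-1.66 to -1.24) for P27NULL against WT, where Chga was higher. Chga and Chgb thus were higher in P27NULL than in both other libraries, Scg2 was lowest in S2CK and Resp18 lowest in P27NULL. Past 1.5-fold were 3 of 7 tested members for P27NULL against WT (Chga, Chgb and Resp18), beside 24.9% of genes. There were 5 of 6 for S2CK against P27NULL, beside 27.2%, and 2 of 6 (Chga and Scg2) for S2CK against WT, beside 28.2%. The members' medians were -0.13, -1.08 and -0.41, beside 0.15, 0.03 and 0.15 over all genes tested.

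Several properties of these cells moved with the libraries, and their part in the result was not tested. The alternatives given here were chosen after the data were seen. Cga, the shared hormone alpha subunit, was at 166622 CPM in WT, 50909 in P27NULL and 61881 in S2CK, and with totals that leave out Cga and Pomc the Chga log2 ratio of P27NULL against WT was 1.57. Pomc was at 6343, 6694 and 29408 CPM, so S2CK gonadotroph-like cells held more Pomc RNA. In S2CK the median cell had Lhb at 162 CPM and Fshb at 0, against 4690.2 and 8008 CPM in WT, while Gnrhr was at 298, 478 and 484 CPM. When each cell was given the same weight, the S2CK against WT log2 ratio of Chga was -0.19 in place of -0.81, no longer past 1.5-fold. Sex also moved with Chga within the library labelled P27NULL. Its 114 male gonadotroph-like cells were at 19030.4 CPM (18618 to 19450) and its 12 female cells at 5856 (5241 to 6523), and male cells alone gave 1.88 against WT. All WT gonadotroph-like cells were called male, and 34 of the 37 S2CK cells were called female, at 3012 CPM. In P27NULL, Chgb was likewise at 1778 CPM in male and 621 in female cells, whereas Scg2 was at 6966 and 6282 CPM.

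**Figure D3:**
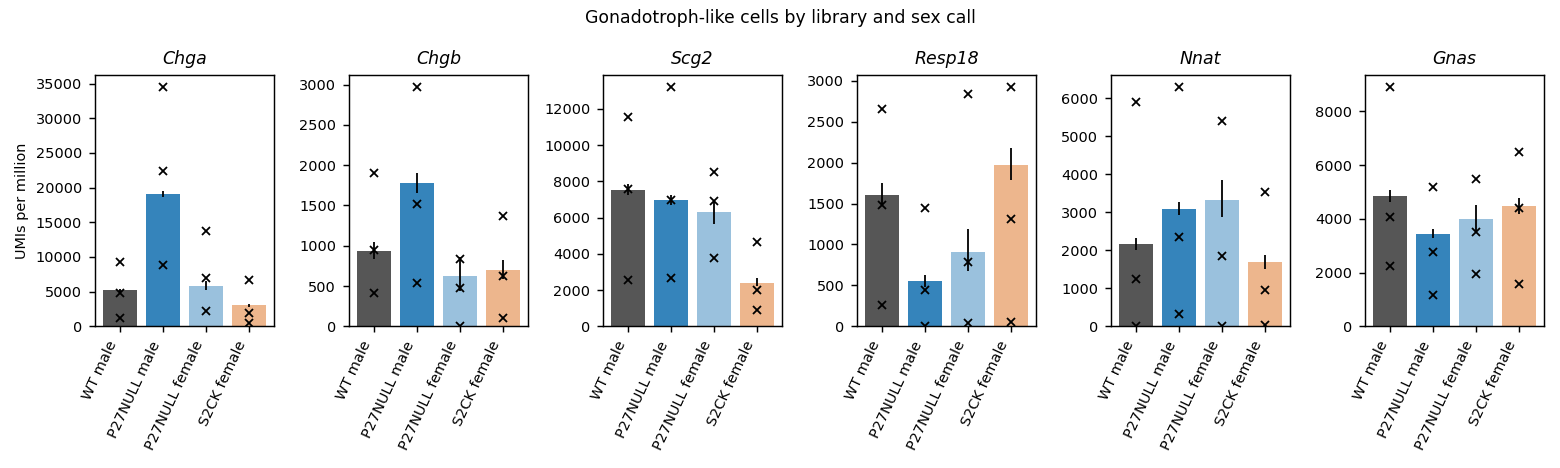
CPM in gonadotroph-like cells by library and sex call (bars, with exact 95% Poisson intervals; crosses are the tenth percentile, median and ninetieth percentile over cells). Chga in male P27NULL cells, 19030.4, stands above male WT cells (5167), female P27NULL cells (5856) and female S2CK cells (3012), and Resp18 is lowest there.

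In corticotroph-like cells Chga was also highest in P27NULL, at 541 CPM in WT, 1297 in P27NULL and 598 in S2CK, with log2 ratios of 1.26 (1.01 to 1.51) for P27NULL against WT and -1.12 (-1.38 to -0.85) for S2CK against P27NULL. It was the 1 member of 7 past 1.5-fold in P27NULL against WT, beside 6.38% of genes. In S2CK against P27NULL it was the 1 member of 6, beside 21.6%, and in S2CK against WT only Scg3 (199 to 98.1 CPM) of 7 was past it, beside 12.1%. Chga in macrophage-like cells moved in the same direction, at 335, 759 and 486 CPM. So did the summed melanotroph markers in corticotroph-like cells, at 274.5, 798 and 474 CPM (6, 7 and 7 of 7 detected). Gonadotroph markers summed to 12085, 1235 and 1229.7 CPM in them (7, 5 and 5 of 7), beside 1027, 979.7 and 1151 CPM of corticotroph markers (5, 3 and 5 of 7). Their part in the corticotroph values was not tested. Nnat, at 136, 113 and 24.3 CPM in macrophage-like cells, had a log2 ratio of -0.54 (-0.65 to -0.42) in corticotroph-like cells of S2CK against P27NULL. Gnas was 0.31 (0.23 to 0.39) above WT in S2CK.

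Among melanotroph-like cells the granins were higher where Pomc took more of the cell's RNA. Cells of each library were ordered by the Pomc share of their UMIs and divided into 5 bins of equal cell number, and levels were given as CPM of UMIs other than Pomc, so that a high Pomc share does not lower the other genes by construction. Pomc took 7.66% of UMIs in the lowest and 27.9% in the highest bin of WT, 6.85% and 21.6% in P27NULL, and 7.34% and 21.6% in S2CK. In WT, Chga was at 1301, 2018, 2484, 2913 and 3552 CPM from the lowest to the highest bin. In P27NULL it was at 2568, 2494, 2605, 3016 and 3754 CPM, and in S2CK at 1324, 1752, 2018, 2124 and 2988 CPM. Chga was thus ordered with Pomc over all bins of WT and S2CK, and only over the upper bins of P27NULL, whose lowest bin had about the Chga level of its middle bin. The log2 ratios of the highest against the lowest bin were 1.45 (1.35 to 1.55), 0.55 (0.50 to 0.59) and 1.17 (1.12 to 1.23).

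Resp18 was ordered with Pomc over all bins of all 3 libraries, from 1605 to 3558 CPM in WT, from 1933 to 3467 in P27NULL and from 2166 to 4516 in S2CK, with log2 ratios of 1.15, 0.84 and 1.06. Scg2 was ordered in the same way with smaller steps, from 991 to 1364, from 1051 to 1504 and from 866 to 1302 CPM. Its log2 ratios were 0.46, 0.52 and 0.59. Scg3 had 1.06 (0.70 to 1.42), 0.35 (0.13 to 0.56) and 0.56 (0.36 to 0.77). Chgb differed least in WT and P27NULL of the granins named so far, at 0.23 (0.08 to 0.38), 0.26 (0.17 to 0.34) and 0.50 (0.44 to 0.57), and its highest level in S2CK was in the bin next to the highest, at 1497 CPM. Gnas had 0.47, 0.14 and 0.27.

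Of the 8 genes 6 had enough UMIs in both ends for the count. All 6 were higher in the highest bin in each library, except that Chgb in WT (-0.12) and Gnas in P27NULL (-0.11) were lower when Pomc was kept in the totals. With Pomc left out of them, past 1.5-fold were 3 in WT (Chga, Scg3 and Resp18), beside 11.0% of genes, 1 in P27NULL (Resp18), beside 7.95%, and 3 in S2CK (Chga, Resp18 and Scg2), beside 10.8%. Their median log2 ratios were 0.76, 0.43 and 0.58, beside -0.03, -0.04 and -0.10 over all genes tested. Chga ranked above 99.5%, 96.9% and 99.6% of those genes and Resp18 above 99.1%, 99.4% and 99.6%. Vgf and Nnat had too few UMIs. Vgf was at 2.37 CPM in the lowest and 12.5 in the highest bin of WT, from 2 and 14 UMIs. Nnat went the other way, with 54 of the 78 UMIs of WT melanotroph-like cells in the lowest bin (63.9 CPM) and 9 in the highest (8.04 CPM).

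Depth and other properties moved with Pomc share. Median UMIs per cell went from 3064 to 5883 over the bins of WT and from 4180 to 6142.5 in S2CK, but from 2739.5 to 2823 in P27NULL. With every cell thinned to 1000 UMIs, Chga had log2 ratios of 1.57, 0.32 and 1.03 and Resp18 of 1.22, 0.57 and 0.88, which takes Resp18 in P27NULL below 1.5-fold. Scg2 in S2CK, just past it, was at 0.35 with Pomc in the totals and 0.49 with 3 bins. Melanotroph markers summed to 4600.1 CPM in the lowest and 9210 in the highest bin of WT, 7541 and 10226 in P27NULL, and 3557 and 5007 in S2CK. Mitochondrial UMIs went from 5.98% to 4.90% in WT, from 5.19% to 4.78% in P27NULL and from 7.73% to 6.90% in S2CK. The part of these in the order with Pomc was not tested. Corticotroph markers summed to 34.3 CPM in the lowest and 3.57 in the highest bin of WT. Without the cells holding a UMI of such a marker, a choice made after the data were seen, the log2 ratio of Chga in WT was 1.43. The female share of cells went from 9.46% to 33.7% over the bins of P27NULL. Within its male cells Chga went from 2676 to 3313 CPM, a log2 ratio of 0.31, and within its female cells from 2199 to 4568 CPM, a ratio of 1.05. Male P27NULL cells of the lowest bin thus stood above those of WT (1301 CPM), all male, while in the highest bin the values were 3313 and 3552 CPM. Resp18 was higher in the highest than in the lowest bin in both sexes, by log2 ratios of 0.89 in male and 0.60 in female cells.

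**Figure D4:**
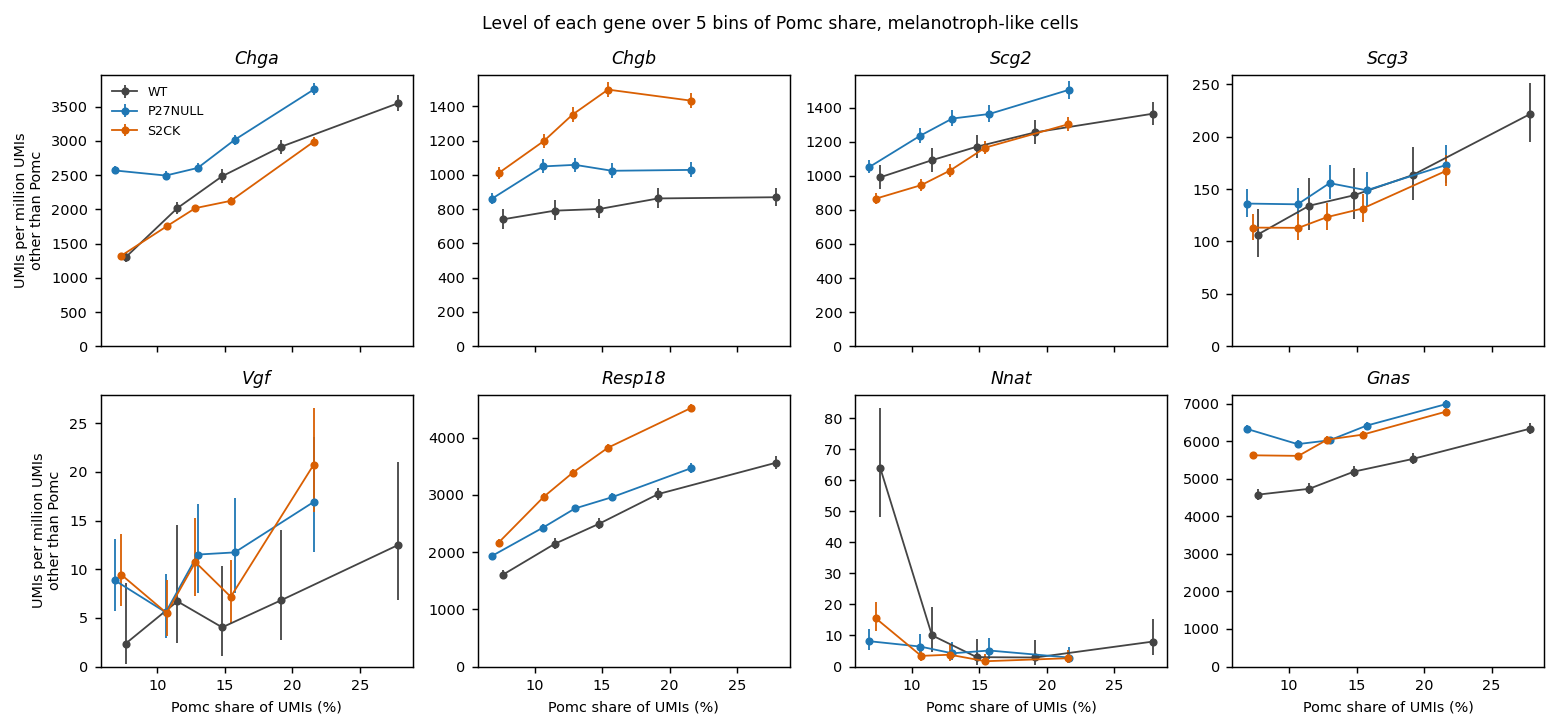
CPM of each gene among UMIs other than Pomc against Pomc share of UMIs (%), over bins of melanotroph-like cells in each library, with exact 95% Poisson intervals. Chga starts at 1301 and 1324 in WT and S2CK but at 2568 in P27NULL, Resp18 is higher at each step in all libraries, and Nnat is highest in the lowest WT bin.

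Over single cells Chga and Resp18 had positive rank correlations with Pomc share, which are descriptions over cells of 1 library and depend on depth. After thinning to 1000 UMIs Spearman's rho for Chga was 0.45 in WT (1208 cells), 0.21 in P27NULL (3488 cells) and 0.32 in S2CK (3003 cells), and for Resp18 it was 0.41, 0.30 and 0.35. Scg2 had 0.20, 0.22 and 0.22, Chgb 0.08, 0.10 and 0.15, and Scg3 0.08, 0.01 and 0.04, the last pair of genes too weak in sparse counts to read. Chga and Chgb were also more variable between cells than most genes of similar level. The variance of Chga over its mean was 1.65, 2.40 and 2.25 in thinned cells, above 97.7%, 98.6% and 99.1% of genes within a factor of 2 of its mean. Chgb had 1.31, 1.35 and 1.70, above 97.3%, 96.5% and 98.7% of such genes, and Resp18 1.32, 1.28 and 1.46, above 91.9%, 87.0% and 97.4%. Gnas had 1.19, 1.26 and 1.25, the latter above 64.9%, 45.8% and 83.8% of such genes.

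Cells with very high Chga were counted in each library. More than 10 of 1000 thinned UMIs were Chga in 0 of 1208 WT cells, which allows a share of up to 0.305% (Clopper-Pearson), in 39 of 3488 P27NULL cells (1.12%, interval 0.80% to 1.53%) and in 11 of 3003 S2CK cells (0.37%, 0.18% to 0.65%). Cells of 1 library are not replicates, so these intervals are not set against each other. Resp18 was above the same 10 UMIs in 1 WT, 8 P27NULL and 11 S2CK cells. The 10-UMI limit was chosen after the data were seen. It equals the highest Chga value of a thinned WT cell, 10 UMIs, so the WT count of 0 was set by the limit. Of the 39 P27NULL cells 36 were called male and none was among the highest doublet scores. Of all 3488 P27NULL melanotroph-like cells 2841 were called male, and 138 of all 4153 P27NULL cells had such scores. Gonadotroph markers summed to 14.2 CPM in them, beside 15.3 CPM in all P27NULL melanotroph-like cells, and Pomc was 9.78% of their UMIs. Gonadotroph markers were thus at the level of all melanotroph-like cells, and Pomc was below its 133546 CPM there. Over the 9 melanotroph-like clusters of P27NULL, built without the 8 genes, Chga was between 1986 and 3849.5 CPM, highest in a cluster of 237 cells with Pomc at 10.8% of UMIs and 5.06% female cells. It was between 1959 and 2294 CPM over 4 WT clusters and between 1358 and 2448 CPM over 8 S2CK clusters.

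Male and female melanotroph-like cells of P27NULL can be compared inside 1 library, with 2841 and 636 cells. Their median depths were 2663 and 3770 UMIs, and cells called male can include female cells whose Xist was missed. The log2 ratio of female against male cells was 0.14 (0.10 to 0.18) for Chga, -0.26 (-0.33 to -0.19) for Chgb, -0.07 for Resp18 and -0.13 for Gnas, with 0.37 for Pomc. For Scg2, Scg3 and Vgf the intervals included 0. None of the 7 members tested was past 1.5-fold, beside 7.42% of genes, and the median of all genes was -0.13. Chgb was thus lower in female than in male cells of P27NULL, beside a median that was also below 0. The part of sex in the Chgb level of S2CK was not tested.

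The genes whose profiles were most like those of the members were found by Pearson's r of log2(CPM + 1) over 24 profiles, of 8 cell types in 3 libraries, among 7392 genes. The profiles of 1 library share depth and free RNA, so r is a description. Nearest to Chga were Scg2 (0.85), Rasgrf1 (0.82) and Kcnk3 (0.82). Chgb was nearest to Scg5 (0.88), Pcsk1n (0.88) and Resp18 (0.87), and Scg2 to Syp (0.89) and Cnih2 (0.86) before Chga. Scg3 had Stmn3 (0.94), and Resp18 had Scg5 (0.89), Rtn1 (0.88) and Ptprn (0.87). For Nnat it was Olfm1 (0.80), for Gnas Bex3 (0.89) and for Vgf Atp5g2 (0.79).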

How the data were processed

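Libraries were made by 3′ droplet capture (10x Genomics) from dissected ILs. The authors deposited UMI counts per gene and cell, without normalization. The submitters' processing notes name Cell Ranger 3.0.2, STAR 2.5.1b, R 3.6.0, Seurat 3 and the build mm10 (GRCm38). The methods say that cells with few genes or over 10% mitochondrial content were removed before deposit. Totals were 8332285 UMIs in WT, 15588317 in P27NULL and 19239147 in S2CK. All cell columns were used.

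The 8 genes, the other gene lists and the markers were chosen with earlier results of these data known. Cells were clustered with scanpy 1.11.5 and igraph 0.11.9 (Python 3.11.15) on 2000 variable genes, 20 principal components and 20 neighbours at Leiden resolution 1, without the 8 genes, Pomc and sex-linked genes. Clusters were named from marker lists, requiring a relative marker score of 0.3, a margin of 0.1 over the next list and 3 detected markers, limits set after the data were seen. Melanotroph-like and stem-cell-like cells were named in each library's own clustering, most others in a joint one, and cells where these clashed stayed unnamed. Scrublet marked only 9, 1 and 1 cells, too few for its calls to be relied on, which was not tested further. Doublets were kept, and dropping the 33, 138 and 97 highest scores was an alternative.

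Since cells are not replicates, UMIs were added up over the cells of each type in a library. Levels have exact Poisson intervals, shares Clopper-Pearson intervals and log2 ratios exact conditional intervals, all at 95%. UMIs are counted per molecule, but intervals cover counting error only. Comparisons over all genes used genes with a row in both tables and at least 100 UMIs in both sums together, and "past 1.5-fold" means either direction. The text names the 8 genes, Pomc, per list and comparison the 2 largest and 2 smallest log2 ratios (some left out for space), and up to 3 genes of the most similar profile per member. Hormone genes and Gnrhr in gonadotroph-like cells, and the CRE, were chosen after values were seen. Ratios were tested on simulated counts with known changes. Alternatives were TMM factors (edgeR 4.0.16 in R 4.3.3), totals without Pomc, no low-count filter, cells with at least 500 genes and 1000 UMIs, doublets left out, joint clustering, resolution 2, thinning to 1000 UMIs, cells of 1 sex and 3 bins of Pomc share.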

Additional observations from a re-analysis of the deposited data

Results flagged for a closer look

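Some members differed between libraries in opposite directions in 2 cell types, with both counting intervals off 0 and at least 1 ratio past 1.5-fold. With 1 library per genotype the difference between cell types was not tested. For P27NULL against WT, Resp18 had a log2 ratio of -1.45 in gonadotroph-like and 0.08 in melanotroph-like cells. The latter was near the median of all genes tested there, 0.09, and is not read as a rise. Nnat had 0.53 in gonadotroph-like and 0.14 in corticotroph-like cells beside -1.45 in melanotroph-like cells, where it was scarce and its ratio is not read as a change of expression. Chgb was higher in S2CK in melanotroph-like cells, by 0.37 against P27NULL and 0.73 against WT, but lower in gonadotroph-like cells (-1.25 and -0.44) and, against WT, in corticotroph-like cells (-0.49).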

How the results depend on the processing

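No paired analysis was possible because each genotype has 1 library. The median log2 ratio of the 8 genes in melanotroph-like cells was 0.13 with TMM factors and 0.14 with totals without Pomc for P27NULL against WT, in place of 0.21, and 0.12 and 0.011 for S2CK against WT, in place of 0.07. For S2CK against P27NULL, TMM factors moved every gene by 0.13, which turned the median from -0.05 to 0.08, Nnat to 0.09 and Gnas to 0.06, and with cells of the same sex the median was -0.14 and Gnas 0.03. Between the highest and lowest bins of Pomc share, the median was 0.41 in WT, 0.18 in P27NULL and 0.33 in S2CK with totals that include Pomc, 0.54 in WT with 3 bins and 0.28 in P27NULL with thinned cells. These medians stayed above 0 under the alternatives run. No single ratio past 1.5-fold turned its direction, while Gnas in WT passed 1.5-fold between bins with thinned cells (0.59), and in gonadotroph-like cells of P27NULL against WT without Cga and Pomc (-0.66) and with equal cell weights (-0.69). Without the low-count filter, 20.8%, 25.8% and 23.5% of genes were past 1.5-fold in melanotroph-like cells, in place of 8.42%, 15.3% and 11.4%. Thinned WT cells held 1 Vgf UMI, so its thinned ratio is not read. The cause of these changes was not tested. Outside the counting interval of the reported value were 51 ratios between bins, 42 in melanotroph-like and 15 in gonadotroph-like cells, and 48 levels, against 87, 166, 30 and 240 inside it. With 1 library per genotype, differences between animals, preparations and genotypes cannot be told apart, and gonadotroph-like and Pou1f1-lineage-like values rest on few cells.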
